A study of Mus musculus with 9 samples.

Results

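Integrins, laminins and nidogens are the genes through which a cell builds a basement membrane and holds on to it. The Affymetrix table held 38 of them among 19938 genes: 26 integrin subunits, 10 laminin chains and the nidogens Nid1 and Nid2. They were chosen by gene symbol alone, from rows that the platform annotation gives 1 symbol, with the row of the highest mean over the 9 arrays where a gene had several.

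The study compared RNA from 3 kinds of mouse cells labelled C57BL/6, with 3 samples a group and 1 array a sample. The first group was labelled as adult cardiac fibroblasts after dedifferentiation, which the series title calls protein-based. The agent, its dose and its duration are not given in the sources used here. The second was embryonic stem (ES) cells of C57 origin, and the third untreated adult cardiac fibroblasts, whose source label also mentions ES cells although the titles do not. No age, culture substrate or feeder layer is given. The labels do not tell whether arrays of 1 group stem from different animals or cultures, so p-values measure the scatter among these particular samples, part of which may be technical.

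Values are the deposited log2 expression levels made with RMA, which aims at a common distribution of the arrays. The array medians still differed and lay between 4.647 and 4.859. Arrays correlated at 0.9931 to 0.9946 among dedifferentiated cells, 0.9875 to 0.9923 among ES cells and 0.9907 to 0.9942 among fibroblasts. The labelled cell types had their defining markers: 9 of 9 pluripotent markers rose and 9 of 9 fibroblast markers fell in dedifferentiated cells and in ES cells, each against fibroblasts (Tdgf1 by 8.39 and 8.17 log2 units, Col3a1 by -6.67 and -7.01). Pou5f1 stood at 11.21 ± 0.038 in dedifferentiated cells, 11.22 ± 0.09 in ES cells and 3.39 ± 0.68 in fibroblasts, and Col1a1 at 7.13 ± 0.072, 6.82 ± 0.29 and 12.61 ± 0.069 in that order (log2 mean ± SD, n = 3 each). Cardiomyocyte markers were not called in any comparison (0 of 8). Xist was at 3.25, 3.15 and 7.31 and the Y-linked Eif2s3y at 8.09, 7.76 and 3.55 in dedifferentiated cells, ES cells and fibroblasts. Uty, also Y-linked, was at 6.36, 5.63 and 3.73, and Kdm5d at 3.74, 3.25 and 3.11. By Xist, Eif2s3y and Uty the fibroblast samples read as female and the dedifferentiated and ES samples as male. The dedifferentiated samples therefore cannot be taken as the same cells as these fibroblast samples. Below, rose and fell mean higher or lower than the fibroblast samples, not a change within the same cells. The part of sex in the results was not tested.

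Laminins are secreted trimers of an alpha, a beta and a gamma chain that polymerise into the sheet of the basement membrane, and nidogens link that sheet to the collagen IV network. Integrins are transmembrane pairs of an alpha and a beta subunit, and the alpha subunit largely sets the ligand. Some alpha subunits bind laminins, some collagens, some the RGD motif of fibronectin and vitronectin, and a leukocyte group binds cell-surface proteins. The chains Lama1, Lamb1 and Lamc1 form the laminin typical of the early mouse embryo, while Lama2 and Lama4 are chains of mesenchymal, muscle and vessel basement membranes.

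In dedifferentiated cells 6 of the 38 genes rose and 16 fell relative to fibroblasts. A gene was called when limma's Benjamini-Hochberg adjusted p over all genes was under 0.05 and the change at least 1 log2 unit, a criterion met by 8.79% of all genes upward and 10.1% downward, against 15.8% and 42.1% of the 38. The genes that rose were the laminin chains Lama1, Lamb1, Lama5 and Lamc1 and the laminin-binding integrin subunits Itga6 and Itga3. Those that fell were Lama4, Lama2, Lamb2, Nid1 and 12 integrin subunits, led by Itgb8, Itga4 and Itga1. In ES cells 5 rose and 16 fell relative to the same fibroblast arrays, where all genes gave 8.85% and 10.4%. The median difference of the 38 genes from fibroblasts was -0.38 log2 units in dedifferentiated cells and -0.45 in ES cells, and that of all genes was 0.01 and 0.02. Between dedifferentiated and ES cells 0 of the 38 were called in either direction (background 1.01% higher and 0.547% lower), although 13 reached an adjusted p under 0.05 with a smaller change. With no minimum size, 11 passed as higher in ES cells against fibroblasts (background 26.1%). RNA was measured in bulk, so fewer cells carrying a transcript and less of it per cell cannot be told apart. No filter on low values was applied, and 17 of the 38 genes had a mean below 6 in every group.

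**Figure D1:**
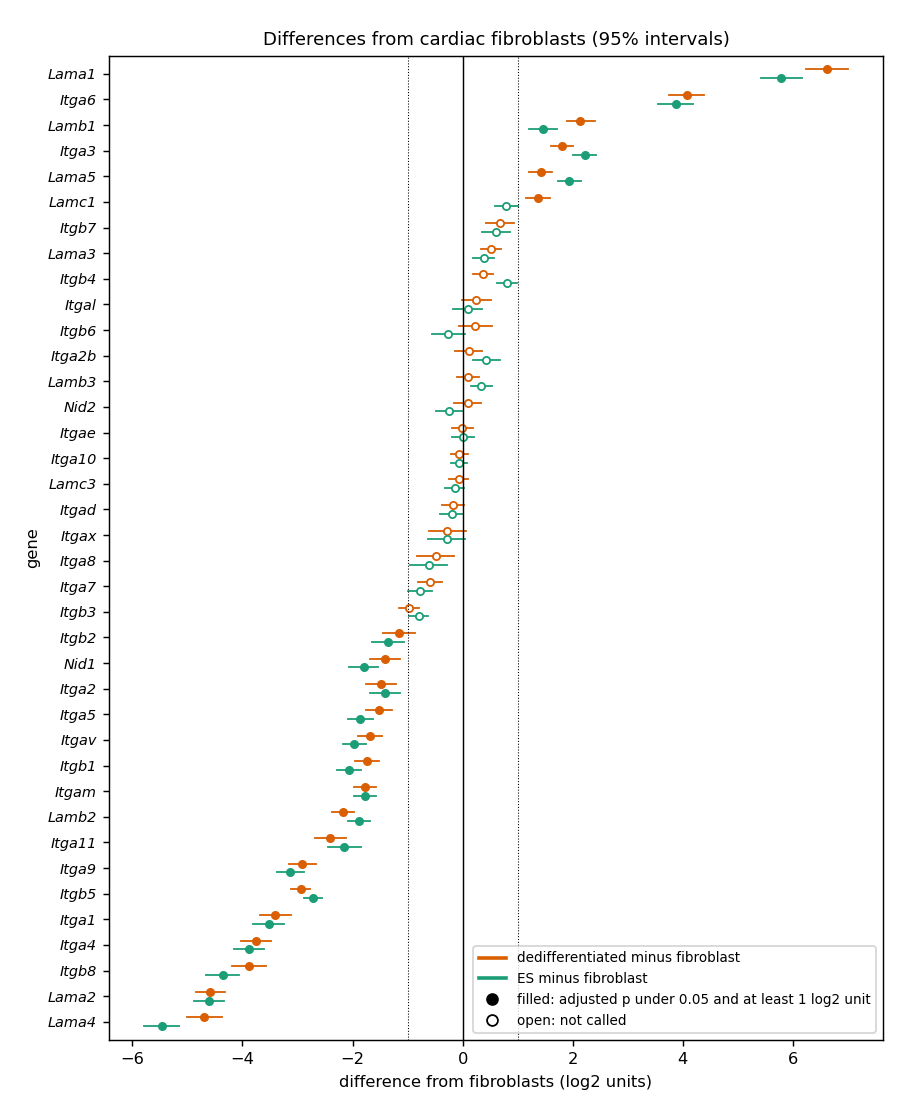
Differences from cardiac fibroblasts in log2 units (horizontal axis) for the 38 genes (vertical axis), for dedifferentiated cells above ES cells within each gene. Points are differences of group means, lines their 95% intervals, filled points are called and dotted lines mark 1 log2 unit. Lama1 lies farthest to the right at 6.61 and 5.79, and Lama4 and Lama2 farthest to the left.

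Promoters in the RefSeq table of build GRCm38.p6 could be matched to 24 of the 38 genes. Among the 14 without an entry were Lama1, Itga6 and Lamc1, which rose, and Lama4, which fell. To show what lies before genes that moved apart, the 250 bases upstream of the RefSeq start are printed for the matched genes with the 2 largest rises (Lamb1 and Itga3) and the 2 largest falls (Lama2 and Itgb8) in dedifferentiated cells against fibroblasts, each 5′ to 3′ on the strand of its gene. Capitals mark, on either strand, the GC box with letters GGGCGG, the CCAAT box, the TATA element TATAA, the AP-1 site with letters TGANTCA and the TEAD site with letters GGAATG. None of these motifs contains another.
Lamb1, chr12:31265043-31265292, plus strand: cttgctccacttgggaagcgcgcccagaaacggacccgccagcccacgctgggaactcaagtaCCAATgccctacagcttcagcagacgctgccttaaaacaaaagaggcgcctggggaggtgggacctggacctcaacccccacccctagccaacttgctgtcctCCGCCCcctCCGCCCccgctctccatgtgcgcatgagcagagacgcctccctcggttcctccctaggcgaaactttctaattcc
Itga3, chr11:95076715-95076964, minus strand: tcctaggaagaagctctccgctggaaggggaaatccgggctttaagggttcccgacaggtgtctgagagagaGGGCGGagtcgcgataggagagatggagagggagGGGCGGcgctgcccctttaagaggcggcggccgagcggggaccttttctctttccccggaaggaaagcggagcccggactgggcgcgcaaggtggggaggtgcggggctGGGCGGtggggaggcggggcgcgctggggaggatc
Lama2, chr10:27616943-27617192, minus strand: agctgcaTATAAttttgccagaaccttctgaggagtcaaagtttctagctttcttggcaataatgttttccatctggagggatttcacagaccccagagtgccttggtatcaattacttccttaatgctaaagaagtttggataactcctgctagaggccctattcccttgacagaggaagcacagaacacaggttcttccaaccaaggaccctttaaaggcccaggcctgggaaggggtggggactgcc
Itgb8, chr12:119238277-119238526, minus strand: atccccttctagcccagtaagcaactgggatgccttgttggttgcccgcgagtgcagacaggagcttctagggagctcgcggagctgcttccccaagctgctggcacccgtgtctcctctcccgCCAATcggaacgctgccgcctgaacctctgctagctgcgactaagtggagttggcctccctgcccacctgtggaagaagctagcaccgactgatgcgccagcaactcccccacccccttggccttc
The GC box occurred 3 times before Itga3 and 2 times before Lamb1, and 0 times before Lama2 and Itgb8. It was in 3 of 3 matched promoters of genes that rose (Lamb1, Itga3 and Lama5), 6 of 14 of genes that fell and 0 of 7 of the others, and in 33.0% of all 27025 promoters. CCAAT was in 4 of the 24 promoters against 34.5% of all, TATAA in 3 against 23.5%, the AP-1 motif in 1 against 6.85% and the TEAD motif in 3 against 12.6%. These are matches of letters in a fixed window and not tests of binding. Bases G and C made up 47.2% of the Lama2 window and 62.0% to 67.6% of the other printed windows. Their median share was 67.6% before matched genes that rose, 61.6% before those that fell and 54.0% before the others. It was 52.0% in all promoters. The GC box consists of G and C, and its counts were not adjusted for this share.

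The laminin alpha chains, which carry the integrin-binding end of the trimer, divided most sharply. Lama1 was at 11.22, 11.33 and 11.31 in dedifferentiated cells, 10.16, 10.50 and 10.73 in ES cells and 4.72, 4.99 and 4.31 in fibroblasts. No dedifferentiated or ES array came near a fibroblast array, and the dedifferentiated arrays all lay above the ES arrays. The rise from fibroblasts was 6.61 log2 units in dedifferentiated cells (97.8-fold, 95% interval 6.24 to 6.99, adjusted p = 4.8e-11) and 5.79 in ES cells (55.2-fold, 5.41 to 6.16).

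Lama5, the alpha chain of most adult epithelial and many embryonic basement membranes, was at 7.91, 7.95 and 7.91 in dedifferentiated cells, 8.61, 8.30 and 8.45 in ES cells and 6.38, 6.54 and 6.61 in fibroblasts. Its groups did not overlap, with the ES arrays highest. It rose by 1.42 log2 units in dedifferentiated cells (1.21 to 1.62) and by 1.94 in ES cells (1.74 to 2.15).

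The mesenchymal chains went the other way. Lama2, whose loss causes a congenital muscular dystrophy, was at 3.63, 3.45 and 3.58 in dedifferentiated cells, 3.74, 3.45 and 3.43 in ES cells and 7.98, 8.06 and 8.38 in fibroblasts. It fell by 4.59 log2 units in dedifferentiated cells (24.0-fold lower, adjusted p = 6.1e-11) and by 4.60 in ES cells, and the arrays of those groups interleaved. Lama4, a chain of vessel and mesenchymal basement membranes, was at 5.12, 4.89 and 5.17 in dedifferentiated cells, 4.05, 4.17 and 4.63 in ES cells and 9.63, 9.72 and 9.89 in fibroblasts. Its fall of 4.69 in dedifferentiated cells (25.8-fold) and 5.46 in ES cells (44.1-fold) left the dedifferentiated arrays above each ES array. Lama3, a chain of skin basement membrane, was between 4.19 and 4.91 on all arrays and differed from fibroblasts by 0.52 in dedifferentiated cells and 0.38 in ES cells, under the size required for a call.

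Among the beta chains, Lamb1 and Lamb2 moved in opposite directions. Lamb1 was at 11.66, 11.82 and 11.85 in dedifferentiated cells, 10.85, 11.12 and 11.32 in ES cells and 9.58, 9.59 and 9.73 in fibroblasts. The 3 groups were separate, and the rise was 2.14 log2 units in dedifferentiated cells (1.89 to 2.40) and 1.46 in ES cells (1.21 to 1.72). Lamb2, the beta chain of neuromuscular and glomerular basement membranes, averaged 7.51 ± 0.079 in dedifferentiated cells, 7.80 ± 0.14 in ES cells and 9.68 ± 0.09 in fibroblasts (SD, n = 3 each), and fell by 2.17 and 1.89 log2 units. Lamb3, which pairs with Lama3 in skin, was between 4.5 and 5.06 on all arrays and was not called.

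Lamc1, the gamma chain of most laminins, was at 11.54, 11.61 and 11.66 in dedifferentiated cells, 10.85, 11.01 and 11.24 in ES cells and 10.24, 10.18 and 10.30 in fibroblasts. The groups did not overlap. It rose by 1.37 log2 units in dedifferentiated cells (1.15 to 1.58), while ES cells differed from fibroblasts by 0.79 (0.58 to 1.01, adjusted p = 2.8e-05), short of 1 log2 unit. The direct difference, dedifferentiated minus ES, was 0.57 (0.35 to 0.79, adjusted p = 0.0018). Lamc3 was between 5.01 and 5.25 on all arrays with differences of -0.07 and -0.14 from fibroblasts.

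The nidogens, a pair of related linker proteins, did not move together. Nid1 was at 8.64, 8.80 and 8.79 in dedifferentiated cells, 8.04, 8.44 and 8.57 in ES cells and 10.10, 10.18 and 10.18 in fibroblasts, a fall of 1.41 log2 units in dedifferentiated cells (-1.68 to -1.14) and of 1.80 in ES cells (-2.07 to -1.54). Nid2 was at 9.60, 9.67 and 9.73 in dedifferentiated cells, 9.06, 9.40 and 9.56 in ES cells and 9.55, 9.56 and 9.63 in fibroblasts. Its arrays overlapped between dedifferentiated cells and fibroblasts, and the difference was 0.09 (-0.16 to 0.34). In ES cells it was -0.24 (-0.49 to 0.01).

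**Figure D2:**
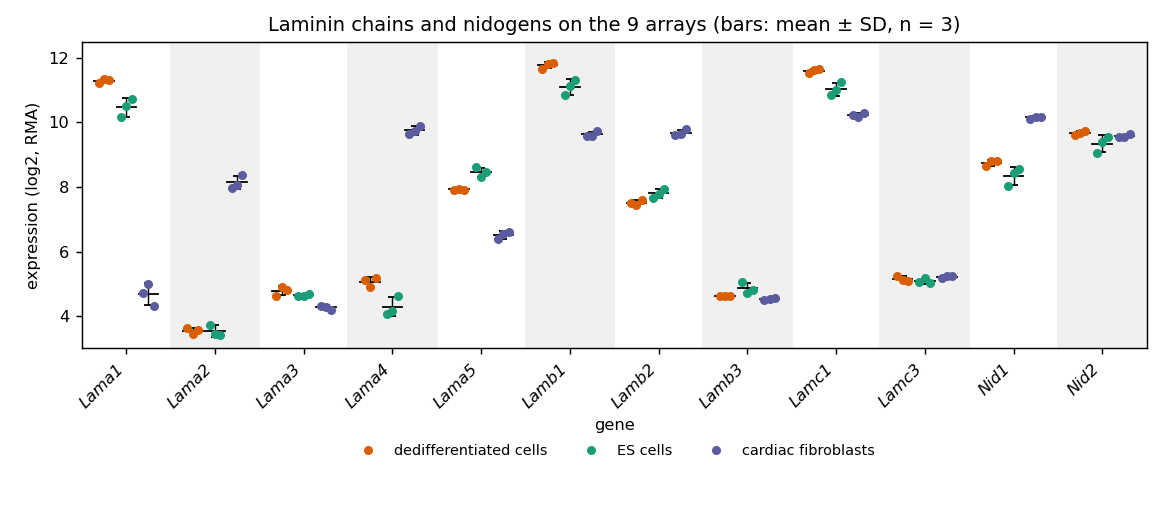
Expression in log2 units (vertical axis) of the laminin chains and nidogens (horizontal axis) on the 9 arrays, with dedifferentiated cells left, ES cells in the middle and fibroblasts right within each gene. Points are arrays and black bars the mean ± SD (n = 3). Lama1, Lama5, Lamb1 and Lamc1 stand above the fibroblast arrays and Lama2, Lama4, Lamb2 and Nid1 below them.

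Of the 3 integrin alpha subunits that bind mainly laminins, Itga6 and Itga3 rose and Itga7 did not. Itga6, a receptor subunit for laminins long used as a surface marker of stem cells, was at 9.20, 9.28 and 9.33 in dedifferentiated cells, 8.71, 9.18 and 9.32 in ES cells and 5.37, 5.23 and 5.0 in fibroblasts. The dedifferentiated and ES arrays overlapped, both far above the fibroblast arrays, and the rise was 4.07 log2 units (16.8-fold, 3.75 to 4.39, adjusted p = 7.4e-10) and 3.87 (14.6-fold, 3.54 to 4.19). Itga3 was at 7.46, 7.46 and 7.60 in dedifferentiated cells, 7.86, 7.91 and 7.99 in ES cells and 5.61, 5.89 and 5.60 in fibroblasts, with no overlap, and rose by 1.81 (1.60 to 2.01) and 2.22 (2.01 to 2.43). Itga7, the laminin receptor subunit of muscle, averaged 5.21 in dedifferentiated cells, 5.02 in ES cells and 5.80 in fibroblasts, differences of -0.59 and -0.78 that were under the required size.

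Collagen-binding alpha subunits were lower for 3 of 4 genes in each comparison with fibroblasts. Itga1, which prefers collagen IV, was at 4.66, 4.95 and 4.39 in dedifferentiated cells, 4.63, 4.52 and 4.48 in ES cells and 7.96, 8.03 and 8.20 in fibroblasts. That is a fall of 3.40 log2 units (10.6-fold, -3.68 to -3.12) and of 3.52 (11.5-fold, -3.80 to -3.24). Itga11, a receptor subunit for fibrillar collagen on fibroblasts, averaged 3.58 in dedifferentiated cells, 3.83 in ES cells and 5.98 in fibroblasts, and Itga2 averaged 4.15, 4.23 and 5.63 in that order, so that Itga11 fell by 2.40 and 2.15 and Itga2 by 1.48 and 1.41. Itga10, known from cartilage, was between 4.64 and 4.80 on all arrays, and its 3 dedifferentiated arrays held exactly the same value.

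Of 4 alpha subunits that bind RGD ligands, Itga5 and Itgav fell. Itga5, the alpha subunit of the classical fibronectin receptor, averaged 7.70 ± 0.059 in dedifferentiated cells, 7.36 ± 0.2 in ES cells and 9.22 ± 0.11 in fibroblasts (SD, n = 3 each), with differences from fibroblasts of -1.51 and -1.86 log2 units. Itgav averaged 8.49 ± 0.021, 8.20 ± 0.18 and 10.17 ± 0.098 in the same order, with differences of -1.69 and -1.97, and both genes fell. Itga8 averaged 4.19 in dedifferentiated cells, 4.06 in ES cells and 4.67 in fibroblasts and was not called, nor was Itga2b, the platelet subunit, at 5.30, 5.61 and 5.18.

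Itga4 and Itga9, related subunits that bind Vcam1 and other ligands, fell in both comparisons. Itga4 was at 4.12, 3.91 and 3.96 in dedifferentiated cells, 4.11, 3.72 and 3.79 in ES cells and 7.70, 7.60 and 7.97 in fibroblasts, 13.5-fold and 14.8-fold lower (-3.76 and -3.88 log2 units). Itga9 was at 5.34, 5.50 and 5.23 in dedifferentiated cells, 5.36, 4.92 and 5.15 in ES cells and 8.19, 8.30 and 8.32 in fibroblasts, 7.54-fold and 8.74-fold lower. For each of these genes the dedifferentiated and ES arrays overlapped. Vcam1 itself averaged 6.23 ± 0.046 in dedifferentiated cells, 5.15 ± 0.36 in ES cells and 11.19 ± 0.094 in fibroblasts (SD, n = 3 each), a fall of 4.96 and 6.04.

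**Figure D3:**
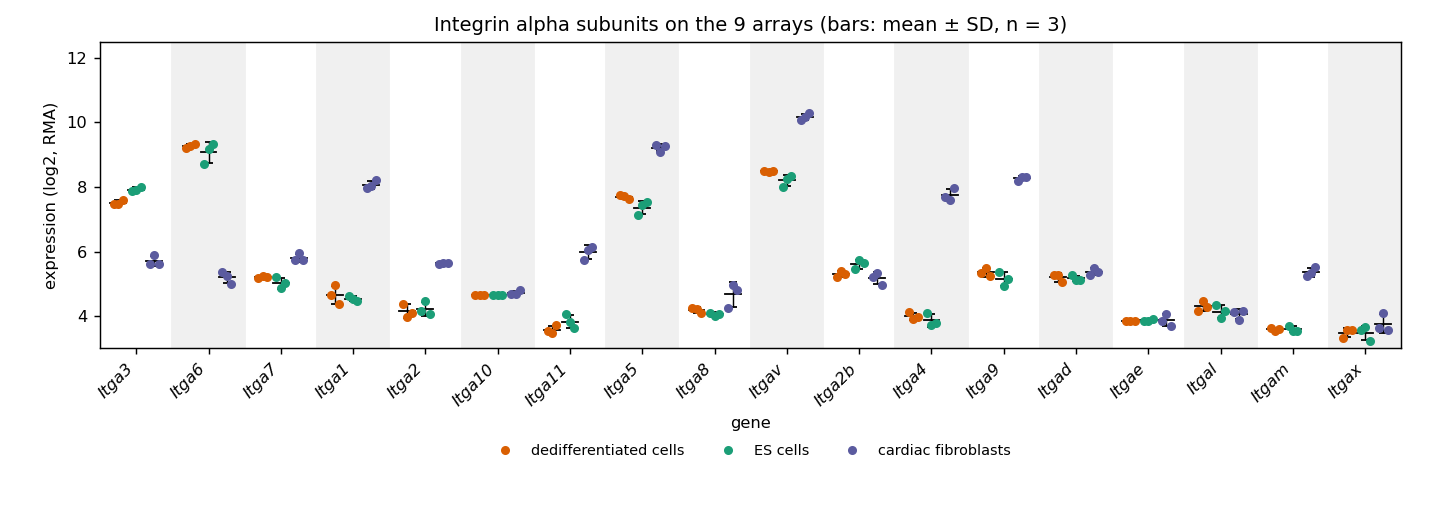
Expression in log2 units (vertical axis) of the integrin alpha subunits (horizontal axis) on the 9 arrays, with dedifferentiated cells left, ES cells in the middle and fibroblasts right within each gene. Points are arrays and black bars the mean ± SD (n = 3). Itga3 and Itga6 stand above their fibroblast arrays, and Itga1, Itga4, Itga5, Itga9 and Itgav are among those below them.

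Itgb1, the beta subunit that pairs with most of these alpha subunits, averaged 10.16 ± 0.045 in dedifferentiated cells, 9.84 ± 0.22 in ES cells and 11.90 ± 0.033 in fibroblasts (SD, n = 3 each), and fell, with differences of -1.74 log2 units (3.34-fold, -1.96 to -1.52) and -2.06 (4.18-fold, -2.29 to -1.84). Of the beta subunits that pair with Itgav, Itgb8 and Itgb5 fell most. Itgb8, which activates latent TGF-beta, was at 4.68, 4.67 and 4.86 in dedifferentiated cells, 4.45, 4.40 and 3.92 in ES cells and 8.73, 8.44 and 8.68 in fibroblasts, and fell by 3.88 (14.7-fold, adjusted p = 6.1e-10) and 4.36 (20.6-fold). Itgb5, a vitronectin receptor subunit, was at 8.29, 8.40 and 8.38 in dedifferentiated cells, 8.52, 8.52 and 8.70 in ES cells and 11.28, 11.28 and 11.32 in fibroblasts, and fell, with differences of -2.94 (7.66-fold) and -2.71 (6.56-fold).

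The remaining partners of Itgav lay just outside the criterion or did not differ by it. Itgb3 averaged 5.63 in dedifferentiated cells, 5.80 in ES cells and 6.60 in fibroblasts, and its difference of -0.97 in dedifferentiated cells (-1.15 to -0.80) crossed 1 log2 unit after another quantile normalization (-1.02), median centring (-1.09) or without fibroblast replicate 1 (-1.02). Itgb6, an epithelial subunit, averaged 5.03 in dedifferentiated cells, 4.54 in ES cells and 4.79 in fibroblasts. Its 3 fibroblast arrays held exactly the same value, so their SD is not a measure of precision. Itgb4, which pairs with Itga6 in the hemidesmosomes of skin, averaged 5.58 ± 0.01 in dedifferentiated cells, 6.01 ± 0.11 in ES cells and 5.20 ± 0.11 in fibroblasts, differences of 0.37 and 0.81. The keratins Krt5 and Krt14 of the same skin cells differed from fibroblasts by 0.29 and 0.25 in dedifferentiated cells and by 0.38 and 0.31 in ES cells.

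**Figure D4:**
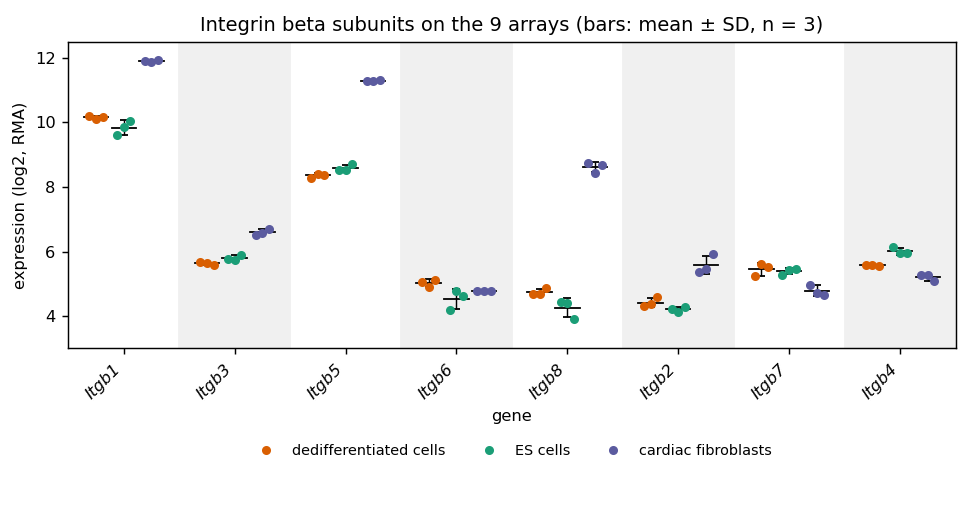
Expression in log2 units (vertical axis) of the integrin beta subunits (horizontal axis) on the 9 arrays, with dedifferentiated cells left, ES cells in the middle and fibroblasts right within each gene. Points are arrays and black bars the mean ± SD (n = 3). Itgb8 and Itgb5 lie farthest below their fibroblast arrays, and Itgb1 keeps values near 10 in dedifferentiated and ES cells.

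Of 7 leukocyte integrins 2 were called, Itgam and Itgb2. Itgam averaged 3.59 ± 0.052 in dedifferentiated cells, 3.59 ± 0.091 in ES cells and 5.36 ± 0.14 in fibroblasts (SD, n = 3 each), and its partner Itgb2 4.42 ± 0.14, 4.22 ± 0.068 and 5.58 ± 0.29, so that Itgam fell by 1.77 and 1.78 and Itgb2 by 1.16 and 1.36. Without fibroblast replicate 3, which had the highest Itgb2 value (5.91), the difference of Itgb2 in dedifferentiated cells was -1.0 and no longer called. Of 13 measured leukocyte markers, 2 rose and 2 fell in each comparison with fibroblasts. All genes gave 8.79% and 10.1% in dedifferentiated cells and 8.85% and 10.4% in ES cells. The median difference of the markers was -0.57 in dedifferentiated cells and -0.43 in ES cells. At an adjusted p under 0.05 of any size, 8 of the 13 were lower in each of these comparisons, where all genes gave 22.4% and 22.9%. In ES cells 2 of the 13 were higher, where all genes gave 26.1%. No marker beyond those called was higher in dedifferentiated cells. Lyz2 fell by 5.65 and 5.52 log2 units, and Tyrobp, a signalling adaptor of myeloid cells, had differences of -1.28 and -1.21. Cd14, Csf1r, Adgre1, Fcgr1 and Cd52 were lower without reaching the required size, at -0.42 to -0.93. Cd68 rose by 1.05 and 1.75 and Laptm5 by 1.02 and 1.75. In dedifferentiated cells neither was called after median centring (0.93 and 0.90) or another quantile normalization (1.0 and 0.96), nor Cd68 without fibroblast replicate 2 (1.0) or Laptm5 without fibroblast replicate 3 (0.93) or dedifferentiated replicate 3 (0.95). The mean log2 level of the list was 4.51 to 4.57 in dedifferentiated cells, 4.64 to 4.74 in ES cells and 5.16 to 5.29 in fibroblasts. Its summed level (log2 of summed linear values), in which the bright Cd68 and Laptm5 weigh most, was 9.37 to 9.50 in dedifferentiated cells, 9.90 to 10.05 in ES cells and 9.85 to 10.04 in fibroblasts. Ptprc, the defining marker of blood cells, averaged 3.59 in dedifferentiated cells, 3.74 in ES cells and 4.42 in fibroblasts. It was also lower without reaching the required size, at -0.83 in dedifferentiated cells and -0.67 in ES cells. Its fibroblast arrays all lay above those of the other groups. The part of leukocytes in the 2 integrin falls was not tested. Itgad, Itgae, Itgal and Itgax differed from fibroblasts by -0.28 to 0.25 in dedifferentiated cells, and Itgb7 by 0.67. Itgad had a second, dimmer row, with means of 4.42 in dedifferentiated cells, 4.3 in ES cells and 4.26 in fibroblasts.

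The direct comparison asked which of these genes separated dedifferentiated from ES cells. None of the 38 reached 1 log2 unit, and 36 of them (94.7%, against 96.2% of all genes) had a 95% interval that excluded changes of 1 log2 unit. Lama1 and Lama4 were the exceptions, with upper bounds of 1.20 and 1.09. At an adjusted p under 0.05 without a minimum size, 9 genes were higher in dedifferentiated cells (23.7%, background 11.2%) and 4 lower (10.5%, background 10%). The higher ones included all chains of the embryonic laminin: Lama1 by 0.83 log2 units (0.45 to 1.20, adjusted p = 0.0052), Lamb1 by 0.68 (0.43 to 0.93, adjusted p = 0.0016) and Lamc1 by 0.57. Lama4 was higher by 0.78 (0.46 to 1.09, adjusted p = 0.0026), and Itgb6, Itgb8, Nid1, Itga5 and Itgb1 by 0.32 to 0.49. The lower ones were Lama5 by -0.53 (-0.73 to -0.32, adjusted p = 0.0021), Itgb4 by -0.43 (-0.62 to -0.25), Itga3 by -0.41 (-0.62 to -0.21) and Lamb2 by -0.29.

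Of these 13 genes, 7 passed when any single array was left out: Lama1, Lama4, Lama5, Lamb1, Lamc1, Itga3 and Itgb4. Nid1, Itga5, Itgb1, Itgb6, Itgb8 and Lamb2 did not pass without at least 1 array. The number passing in all was 7 without dedifferentiated replicate 1 or 3 and 8 without dedifferentiated replicate 2, and 9 to 13 without any other single array. The share of all genes passing moved too, to 15.9%, 15% and 16.4% without dedifferentiated replicates 1, 3 and 2 and to 17.3% to 22.9% without any other array. ES replicate 1 was the lowest ES array for 18 of the 38 genes and for 40.3% of all genes, and without it 13 genes passed, 10 of them among the 13 named. With only the dedifferentiated and ES groups fitted, 4 of the 38 genes were higher, against 10.1% of all genes. With array weights 14 were higher, against 17% of all genes.

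**Figure D5:**
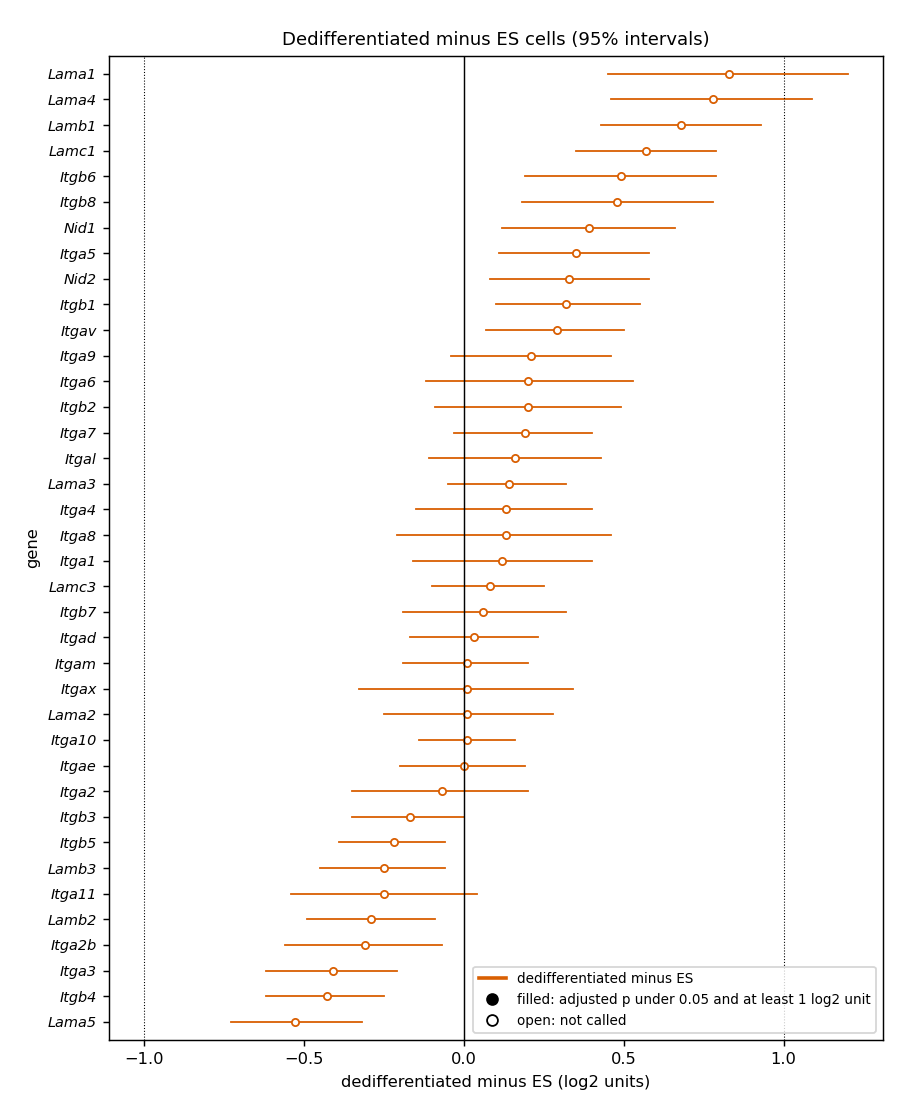
Dedifferentiated minus ES difference in log2 units (horizontal axis) for the 38 genes (vertical axis). Points are differences of group means, lines are 95% intervals, all points are open because none was called, and dotted lines mark 1 log2 unit. Lama1, Lama4, Lamb1 and Lamc1 lie at the top and Lama5, Itgb4 and Itga3 at the bottom.

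Primitive endoderm is an early embryonic layer known to lay down a basement membrane of Lama1, Lamb1 and Lamc1. Of its 10 measured markers 4 were called higher and 0 lower, dedifferentiated against ES cells, with a median of 0.64. Over all genes 1.01% were called higher and 0.547% lower. The 4 markers were Sox17 by 1.79 (1.46 to 2.11), Gata4 by 1.63 (1.34 to 1.92), Sox7 by 1.40 and Gata6 by 1.36 (1.07 to 1.64). The summed level of the list was 11.31 to 11.64 in dedifferentiated cells, 10.12 to 10.63 in ES cells and 10.69 to 10.79 in fibroblasts. Gata4 and Gata6, which are also cardiac factors, stood at 9.61 and 9.40 in dedifferentiated cells, 7.98 and 8.04 in ES cells and 9.16 and 8.83 in fibroblasts. Cubn and Amn, the subunits of an endocytic receptor of this layer, differed between dedifferentiated and ES cells by -0.08 and -0.18, and Foxa2 and Dab2 by 0.51 and 0.77, none of them called. Afp and Ttr, markers of later visceral endoderm, averaged 3.59 and 3.68 in dedifferentiated cells and 3.67 and 3.34 in ES cells. The part of primitive endoderm cells in the laminin difference was not tested. Of 8 endothelial markers 1, Cdh5, was called higher and 0 lower in the same comparison, with a median of 0.40. The part of endothelial cells was not tested. Of 9 fibroblast markers 2 were called against ES cells, Pdgfra at 1.37 and Dcn at 1.20, with a summed level of 9.90 to 10 in dedifferentiated cells, 9.10 to 9.24 in ES cells and 14.61 to 14.75 in fibroblasts. Their part in the higher Lama4 was not tested either.

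Other components of basement membranes were mixed. Of 20 measured genes, 3 rose and 6 fell in dedifferentiated cells, and 3 rose and 7 fell in ES cells, with medians of -0.24 and -0.29. Over all genes 8.79% rose and 10.1% fell in dedifferentiated cells, and 8.85% and 10.4% in ES cells. Col18a1, the source of endostatin, rose by 1.58 and 1.59, and Frem2, a protein of the epidermal basement membrane, by 1.43 and 1.55. Col4a5, a collagen IV chain, fell by 3.77 and 3.73 and Npnt, the nephronectin ligand of Itga8, by 3.77 and 3.10. The major collagen IV chains Col4a1 and Col4a2 were not called, with differences of 0.23 and -0.10 in dedifferentiated cells and -0.30 and -0.66 in ES cells. Between dedifferentiated and ES cells 0 of the 20 were called (median 0.00), against 1.01% of all genes higher and 0.547% lower.

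Laminin receptors other than integrins, with the sarcoglycans and the enzymes that glycosylate dystroglycan, had 15 measured genes. Of these 0 rose and 8 fell in dedifferentiated cells, and 1 rose and 7 fell in ES cells (medians -1.08 and -0.55). The shares of all genes were 8.79% and 10.1% in dedifferentiated cells and 8.85% and 10.4% in ES cells. The syndecans Sdc3 and Sdc2, heparan sulfate proteoglycans, fell by 4.54 and 4.25 in dedifferentiated cells and by 4.20 and 4.01 in ES cells. Dag1, dystroglycan itself, differed by -0.41 and -0.17. Bcam, a receptor for the Lama5 chain, averaged 7.73 ± 0.079 in dedifferentiated cells, 8.92 ± 0.049 in ES cells and 7.09 ± 0.012 in fibroblasts (SD, n = 3 each). It rose by 1.83 in ES cells and was the only gene of this list called between dedifferentiated and ES cells, at -1.19 (-1.34 to -1.03, adjusted p = 2.8e-06). Of all genes 1.01% were called higher and 0.547% lower between these groups. Lama5 differed between the same groups by -0.53.

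The adaptors that tie integrins to actin were mostly lower. Of 19 measured, 1 rose and 10 fell in dedifferentiated cells and 1 rose and 12 fell in ES cells, with medians of -1.13 and -1.33. All genes gave 8.79% and 10.1% in dedifferentiated cells and 8.85% and 10.4% in ES cells. Parva and Parvb, related parvins that bind the integrin-linked kinase, moved in opposite directions: Parva averaged 8.11 ± 0.025 in dedifferentiated cells, 8.18 ± 0.16 in ES cells and 10.63 ± 0.045 in fibroblasts, and Parvb 7.63 ± 0.047, 7.65 ± 0.22 and 4.88 ± 0.32 (SD, n = 3 each). Parvb rose by 2.75 and 2.77 and Parva fell by 2.53 and 2.45. Lims2, another partner of that kinase, fell by 2.66 in dedifferentiated cells, and the actin-linking Vcl by 2.22 in ES cells. None of the 19 was called between dedifferentiated and ES cells (0 higher and 0 lower, median -0.02), against 1.01% of all genes higher and 0.547% lower.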

How the data were processed

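RNA of 9 samples was hybridised to Affymetrix Mouse Gene 1.0 ST arrays. The deposited values are log2 expression levels. They were made by the authors with RMA in Affymetrix Expression Console 1.1, per the submitters' processing notes; further settings are not given in the sources used here. RMA removes a general shift of all transcripts and understates changes of dim genes, and the table has no detection calls, so a dim gene cannot be told from an absent one. The number of arrays limits the precision.

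Of 35557 rows, 21789 had 1 symbol in the platform annotation, 1621 had several and 12147 were not listed. The brightest row was kept for each gene, leaving 19938 genes. A single linear model over the 9 arrays was fitted in limma 3.58.1 under R 4.3.3, variances were moderated by empirical Bayes, and p-values were adjusted over all genes by Benjamini-Hochberg. The fit was tested on simulated data. Calls needed an adjusted p under 0.05 and 1 log2 unit. The genes described and all lists were chosen with earlier results of these data known. The genes printed with every array are the called ones with the 6 largest rises and falls per comparison and the nidogens; of each pathway list the 2 largest rises and falls are named, and of each marker list the largest. Sox7, Foxa2, Dab2, Amn, Dcn, Tyrobp, Cd14, Csf1r, Adgre1, Fcgr1, Cd52, Dag1, Col4a1, Col4a2, Afp, Ttr, Krt5 and Krt14 were named after their values were seen. So were Uty and Kdm5d.

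Promoter sequences are from RefSeq.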

Additional observations from a re-analysis of the deposited data

How the results depend on the processing

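With only the genes above the median level, 10 of 19 members fell in each comparison with fibroblasts, against 16, since fewer genes were tested (15.3% and 15.8% of all genes tested). At 2 log2 units or more, 3 rose and 9 fell in each of those comparisons, against 2.19% and 4.08% of all genes in dedifferentiated cells and 2.25% and 4.34% in ES cells. With no minimum change 11 passed as higher in ES cells against fibroblasts, and 9 were higher and 4 lower in dedifferentiated than in ES cells. Those 9 were 4 with all rows of the table tested (7.31% of all rows), 4 with only the 2 groups compared (10.1% of all genes) and 14 with array weights (17%) (counts added after the data were seen; the cause was not tested). The labels name no pairing, and the replicate numbers were not treated as pairs. In their deviations from the group means, same-numbered arrays of different groups correlated at -0.2 to 0.25 and differently numbered ones at -0.24 to 0.32. A replicate block on the numbers changed none of these counts of members (6, 16, 5, 16, 0 and 0, and 9 and 4 of any size). Leaving out each array gave 6 to 6 rises and 15 to 17 falls in dedifferentiated cells, 5 to 5 and 16 to 16 in ES cells and 0 to 0 calls between those groups, and of the differences of any size 4 to 10 higher and 3 to 6 lower.

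Differences close to 0 changed sign and stayed uncalled. Against fibroblasts, in dedifferentiated cells, Lamb3 was at -0.02 after another quantile normalization and -0.03 after median centring, Nid2 at -0.03 after median centring, and Itgae at 0.05 with array weights and 0.08 without fibroblast replicate 2. In ES cells Itgal was at -0.01 after quantile normalization, -0.03 after median centring, -0.11 with array weights and -0.01 to 0.19 without single arrays. Between dedifferentiated and ES cells, leaving out 1 array put Lama2 at -0.04 to 0.12, Itga2 at -0.19 to 0.05, Itga1 at -0.02 to 0.26, Itgb7 at -0.01 to 0.17, Itgam at -0.02 to 0.06, Itgad at -0.01 to 0.11 and Itgax at -0.12 to 0.09, and array weights put Itgax at -0.09. Of single-gene calls among the 38, the ones that changed were Itgb2 and Itgb3, as described.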

Other observations

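Ligands of integrins other than laminins were lower as well. Of 17 measured, 0 rose and 9 fell in dedifferentiated cells and 0 rose and 10 fell in ES cells, each against fibroblasts (medians -1.49 and -1.68). All genes gave 8.79% and 10.1% in dedifferentiated cells and 8.85% and 10.4% in ES cells. Postn, periostin, fell by 6.26 and 6.15 log2 units, and Tnc, tenascin C, by 4.36 and 7.48. Fibronectin (Fn1) averaged 10.12 ± 0.0033 in dedifferentiated cells, 10.71 ± 0.019 in ES cells and 12.12 ± 0.11 in fibroblasts (SD, n = 3 each), a fall of 2.00 and 1.42. Tnc and Vcam1 were the 2 ligand genes called between dedifferentiated and ES cells, higher by 3.11 (2.75 to 3.47) and 1.08 (0.76 to 1.40), and Vcam1 was at 0.88 without ES replicate 1 and 0.90 with array weights. Of all genes 1.01% were called higher and 0.547% lower between these groups. Fn1 was named after its values were seen.

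Markers of other cells gave these values. Against fibroblasts, 8.79% of all genes were higher and 10.1% lower in dedifferentiated cells, and 8.85% and 10.4% in ES cells. Endothelial markers were higher for 4 of 8 and lower for 1 in dedifferentiated cells and higher for 1 and lower for 1 in ES cells, led by Pecam1 (2.44 and 2.48 log2 units) and Emcn (-1.36 and -1.51), and Cdh5 was higher by 1.38 in dedifferentiated than in ES cells. Of 5 platelet markers 1, Pf4, was lower, by -2.60 and -2.56. Of 5 smooth muscle markers 3 were lower and 1 higher in each comparison with fibroblasts, with Tagln at -3.76 in dedifferentiated cells, Acta2 at -4.53 in ES cells and Des at 1.33 and 2.14, and Cnn1 was higher by 1.53 in dedifferentiated than in ES cells. Of 6 epithelial markers 4 were higher in each comparison with fibroblasts, led by Epcam at 6.23 and 6.40. In ES cells Cubn of the primitive endoderm list rose by 2.68 and Gata4 fell by 1.18 relative to fibroblasts.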
